A study of Mus musculus with 6 samples.

Results

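The nuclear-encoded genes of oxidative phosphorylation are described here in the hippocampus of mice with a conditional knockout of Ctcf and of wild type (WT) mice. Members were the genes whose symbol marks a subunit, an assembly factor or a relative of complexes I to V, taken by the name stems Nduf, Sdh, Uqcr, Cyc1, Cox4 to Cox8 and Atp5. This rule took 93 of the 24421 gene rows and used no measured value, though it was chosen with earlier results of these data known. It excluded pseudogene symbols with -ps, of which 0 matched the name stems. The counts held 0 rows for genes encoded by mitochondrial DNA, so the mitochondrial subunits of the same complexes were not analysed here. RNA of whole hippocampus was sequenced in 3 libraries of conditional knockout (cKO) mice and 3 libraries of WT mice, all of strain C57/Bl, and the series calls the libraries of a genotype biological replicates. The Cre line that deletes Ctcf, the cells it acts in, and the age and sex of the animals are not given in the sources used here.

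Oxidative phosphorylation takes place in the inner mitochondrial membrane. Complexes I and II pass electrons from NADH and succinate to coenzyme Q, complex III passes them on to cytochrome c, and complex IV passes them to oxygen. Complexes I, III and IV pump protons, and complex V (ATP synthase) uses the returning protons to make ATP. Core subunits carry the catalysis, accessory subunits surround and stabilise them, and assembly factors build the complexes without staying in them. Neurons depend strongly on this pathway to restore their ion gradients after firing. CTCF is an architectural factor found at the bases of chromatin loops, and NRF1, GABPA and YY1 are transcription factors known to bind promoters of this pathway.

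The promoters of 7 members are shown first, because they hold the motifs that were searched. Each is the stretch of 170 bases upstream of the transcription start, read 5′ to 3′ on the gene's strand, from RefSeq on GRCm38.p6, and capitals mark every match to a searched motif on either strand. Ndufb7 (chr8:83566588-83566757, plus strand) was the member called in the comparison of genotypes. Sdhd (chr9:50603850-50604019, minus strand), Uqcr11 (chr10:80406822-80406991, minus strand), Cox6a1 (chr5:115348959-115349128, minus strand) and Atp5e (chr2:174464102-174464271, minus strand) stand for complexes II to V, and were picked from the members described below because they hold a match. Ndufa6 (chr15:82354292-82354461, minus strand) and Ndufaf4 (chr4:24897913-24898082, plus strand) hold the core of the CTCF motif.
Ndufb7: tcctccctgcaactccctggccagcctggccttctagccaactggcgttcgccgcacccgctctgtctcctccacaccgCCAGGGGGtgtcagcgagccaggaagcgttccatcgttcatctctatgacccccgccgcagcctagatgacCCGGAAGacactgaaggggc
Sdhd: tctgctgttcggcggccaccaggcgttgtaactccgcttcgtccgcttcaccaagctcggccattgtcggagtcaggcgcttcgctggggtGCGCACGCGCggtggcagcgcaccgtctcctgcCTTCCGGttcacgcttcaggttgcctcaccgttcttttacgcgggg
Uqcr11: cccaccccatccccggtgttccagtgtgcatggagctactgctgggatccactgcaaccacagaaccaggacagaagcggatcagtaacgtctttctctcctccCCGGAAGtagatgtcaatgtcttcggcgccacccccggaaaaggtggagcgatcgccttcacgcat
Cox6a1: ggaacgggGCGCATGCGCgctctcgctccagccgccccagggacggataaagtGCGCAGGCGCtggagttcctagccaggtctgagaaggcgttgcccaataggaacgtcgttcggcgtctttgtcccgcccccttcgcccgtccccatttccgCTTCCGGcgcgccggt
Atp5e: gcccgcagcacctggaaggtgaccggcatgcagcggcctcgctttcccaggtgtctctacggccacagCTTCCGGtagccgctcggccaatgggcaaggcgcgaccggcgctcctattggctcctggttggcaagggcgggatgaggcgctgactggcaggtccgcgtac
Ndufa6: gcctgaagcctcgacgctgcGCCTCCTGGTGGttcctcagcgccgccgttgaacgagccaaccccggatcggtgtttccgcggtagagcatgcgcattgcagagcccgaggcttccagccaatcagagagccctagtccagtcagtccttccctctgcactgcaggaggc
Ndufaf4: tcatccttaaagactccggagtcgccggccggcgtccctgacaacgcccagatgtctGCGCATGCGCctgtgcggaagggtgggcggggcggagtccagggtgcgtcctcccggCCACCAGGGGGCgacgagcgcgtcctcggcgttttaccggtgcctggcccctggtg

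The motif letters searched were GCGC, any base and TGCGC in a row for NRF1, CCGGAAG for GABPA and other ETS factors, AANATGGCG for YY1, CCAC, any base, AG, any 2 bases and GGC in a row for the CTCF core and CCAGGGGG for the centre of the CTCF motif. The last one was added after the Ndufb7 promoter had been seen, and it overlaps the CTCF core in Ndufaf4. RefSeq promoters matched 76 of the 93 members, and each window ran from 250 bases before to 50 bases after the start. The NRF1 letters were in 23.7% of member promoters, against 9.58% of the promoters of all tested genes and 4.78% of all 27025 promoters. The GABPA letters were in 21.1% of member promoters, against 16.2% of those of tested genes and 9.12% of all. The YY1 letters were in 11.8% of member promoters, against 4.77% of those of tested genes and 2.51% of all. In the 250 bases before the start alone, they were in 1.32% of member promoters, against 1.95% of those of tested genes. The NRF1 and GABPA letters were there in 17.1% and 15.8% of member promoters, against 7.67% and 12.5% of those of tested genes. The CTCF core was in 2.63% of member promoters, which were those of Ndufa6 and Ndufaf4, against 0.879% of those of tested genes and 0.670% of all. The CTCF centre letters were in 3.95% of member promoters, those of Ndufb7, Ndufc1 and Ndufaf4, against 3.01% of those of tested genes and 2.03% of all. A match is a run of letters and not a measured binding site.

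Total counts ran from 15719249 to 23220455 in the cKO libraries and from 14974750 to 19543473 in the WT libraries. Ctcf, the targeted gene, had 24.1, 34.5 and 35.8 CPM (counts scaled to a common library size) in the cKO libraries, against 64.3, 65.2 and 70.3 CPM in the WT libraries. Its log2 fold change was -1.08 ± 0.15 (SE) with an adjusted p of 0.0264, and the groups did not overlap. Libraries also differed in markers of neighbouring tissue. The summed level of 8 striatal markers was 134, 365 and 215 CPM in the cKO libraries, against 622, 3016 and 1240 CPM in the WT libraries, and all 8 were lower in cKO. The sum of 10 markers of choroid plexus and ependyma was 623, 6979 and 3294 CPM in the cKO libraries, against 6324, 12404 and 7753 CPM in the WT libraries. The sum of 8 oligodendrocyte markers was 10966, 14436 and 13205 CPM in the cKO libraries, against 14286, 18991 and 17105 CPM in the WT libraries. The sum of 6 astrocyte markers was 3428 to 3864 CPM in cKO and 3171 to 3368 CPM in WT, and that of 6 interneuron markers, of which 5 were lower in cKO, was 641 to 767 CPM in cKO and 763 to 962 CPM in WT. The sum of 8 markers of all neurons spanned 7311 to 7737 CPM in cKO and 7447 to 7804 CPM in WT, and that of 6 markers of excitatory neurons spanned 4135 to 5922 CPM in cKO and 3877 to 4513 CPM in WT. Log2 fold changes were negative for all 10 choroid plexus and ependyma markers and all 8 oligodendrocyte markers, and positive for all 6 excitatory markers. They were negative for 5 of the 8 markers of all neurons and 2 of the 6 astrocyte markers. By edgeR, 0 of these markers had an adjusted p below 0.05, where 1.51% of all genes tested did. The least striatal and choroid plexus signal was in cKO replicate 1 and the most in WT replicate 2, so results are also given without this pair of libraries. The part of tissue content in the values below was not tested, and in bulk tissue fewer cells of a type and less RNA per cell cannot be told apart.

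Most members had slightly lower levels in cKO, and 1 of them passed the test. Of the 89 members with enough counts, 1 fell and 0 rose at an adjusted p below 0.05 in edgeR's quasi-likelihood test with Benjamini-Hochberg adjustment over all 14916 genes tested. Among all genes tested, 1.51% were called by the same rule, with 0.463% lower and 1.05% higher in cKO. The log2 fold change was negative for 73 of the 89 members (82.0%), against 50.8% of all genes tested. The median log2 fold change of members was -0.08, a difference of -5.42%, against -0.00 over all genes tested. Member values ran from -0.76 for Cox6b2 to 0.17 for Ndufa5. At an unadjusted p below 0.05 there were 16 members lower and 0 higher in cKO, where all genes tested had 8.81% lower and 11.1% higher. The cKO and WT libraries did not overlap for 22 members (24.7%), all lower in cKO, where all genes tested had 12.4% lower and 14.6% higher. Members share the same 6 libraries and are not replicates of each other. Without WT replicate 1 the median of members was -0.03, without cKO replicate 2 it was -0.05, and without WT replicate 2 it was -0.13. Without WT replicate 2 and cKO replicate 1 together it was -0.16, with 81 members negative.

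**Figure D1:**
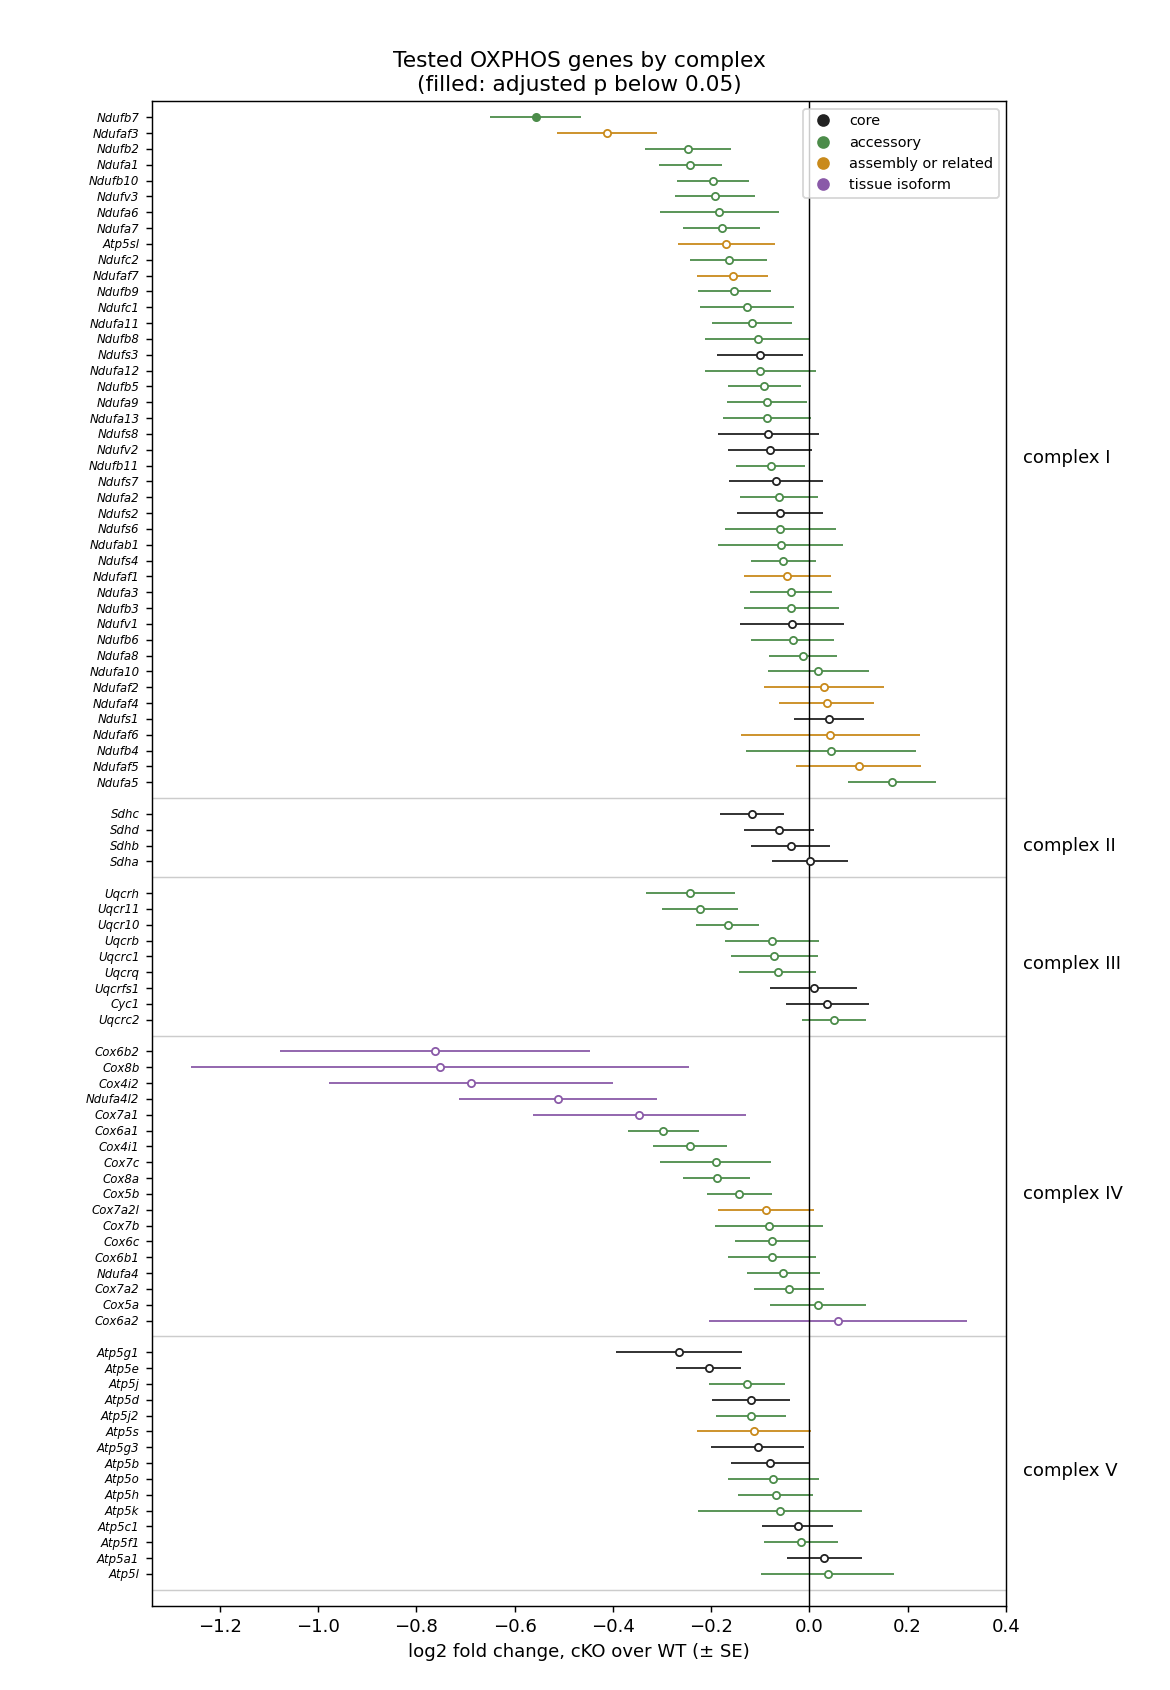
Log2 fold change (cKO over WT, horizontal axis) of the 89 tested genes, one row per gene, grouped by complex and coloured by role, with bars of 1 SE. Ndufb7 is the filled point at -0.56, and 73 of the 89 points lie left of 0.

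Complex I had 44 members, of which 43 were tested, with a median log2 fold change of -0.08 and 35 negative values. The 28 tested accessory subunits had a median of -0.09, the 7 core subunits -0.07 and the 8 assembly factors -0.01. The core subunits among them form the part that takes electrons from NADH and hands them to coenzyme Q. Of these 7, 0 had an unadjusted p below 0.05, where 8.81% of all genes tested were lower and 11.1% higher. The log2 fold changes of the core subunits ran from -0.10 for Ndufs3 to 0.04 for Ndufs1.

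Ndufb7, an accessory subunit of the membrane arm that faces the intermembrane space, lies on chromosome 8 at 83566758 to 83571623 (GRCm38, plus strand). Its level was 58.2, 56.1 and 63.4 CPM in the cKO libraries, against 95.7, 86.9 and 79.2 CPM in the WT libraries. The highest cKO library lay below the lowest WT library. Means were 59.2 ± 3.79 CPM in cKO and 87.2 ± 8.26 CPM in WT (SD, n = 3 each), and Ndufb7 fell by 0.56 on the log2 scale (SE 0.09, edgeR adjusted p = 0.0450). Over all genes tested, the count of calls fell from 225 to between 12 and 147 with 1 library left out. The call of Ndufb7 did not hold when any of the libraries was left out. The adjusted p was 0.180, 0.187 and 0.0738 without cKO replicates 1, 2 and 3, and 0.0883, 0.0577 and 0.0956 without WT replicates 1, 2 and 3. The log2 fold change in these 6 fits stayed between -0.62 and -0.49. Without WT replicate 2 and cKO replicate 1 together it was -0.55, with an adjusted p of 0.118. No annotated exon of another gene overlapped Ndufb7, and 0 of its 50-base windows were found in a gene elsewhere. The authors' deposited table gave Ndufb7 a log2 fold change of -0.56 with an adjusted p of 0.000203.

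The nearest tested genes on either side of Ndufb7 differed among themselves, and genes that were not tested are passed over here. Tecr, which lies just downstream at 83571698 to 83594491 and makes an enzyme of fatty acid elongation, had a log2 fold change of -0.02 (SE 0.08). Dnajb1, a heat shock co-chaperone and the next gene, averaged 76.7 ± 11.8 CPM in cKO and 108 ± 9.07 CPM in WT (SD, n = 3 each), a log2 fold change of -0.50 with an adjusted p of 0.0962. Gipc1 followed at -0.26 (adjusted p = 0.309). Upstream, Scoc and Clgn both had -0.02 and Elmod2 0.07.

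Ndufaf3, an assembly factor that acts early in building complex I, had the next smallest p of the complex. Its level was 24.6, 22.2 and 27.2 CPM in the cKO libraries, against 35.0, 32.8 and 30.9 CPM in the WT libraries. The groups did not overlap, but the log2 fold change of -0.41 ± 0.10 (SE) missed the threshold with an adjusted p of 0.0962. Ndufa1, a small X-linked subunit of the membrane arm, had 56.5, 58.8 and 59.8 CPM in the cKO libraries, against 67.6, 69.9 and 69.7 CPM in the WT libraries. All 3 cKO libraries lay below all WT libraries, with a log2 fold change of -0.24 ± 0.06 (SE) and an adjusted p of 0.114. Ndufb9, an accessory subunit with the highest level per length in complex I (249 CPM per kb of transcript in cKO and 276 in WT), had 186, 167 and 173 CPM in the cKO libraries, against 203, 186 and 195 CPM in the WT libraries. Its groups met at about 186 CPM, and its log2 fold change was -0.15 (adjusted p = 0.303). Exons of another annotated gene cover 28.6% of its transcript.

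Ndufa5, an accessory subunit of the matrix arm, had the largest positive value of all tested members. Its level was 84.1, 74.5 and 76.2 CPM in the cKO libraries, against 74.97, 63.4 and 70.6 CPM in the WT libraries. The groups overlapped, and the log2 fold change of 0.17 ± 0.09 (SE) had an adjusted p of 0.337. It was 0.11 without WT replicate 2, 0.11 without cKO replicate 1 and 0.05 without both. The other positive members of complex I were Ndufaf2, Ndufaf4, Ndufaf5, Ndufaf6, Ndufa10, Ndufb4 and Ndufs1, with values of 0.02 to 0.10. Ndufa6 and Ndufaf4, whose promoters hold the CTCF core shown above, had log2 fold changes of -0.18 (adjusted p = 0.435) and 0.04 (adjusted p = 0.875).

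Complex II, which is also the succinate dehydrogenase of the citric acid cycle, has 4 subunits, all encoded in the nucleus, and its median log2 fold change was -0.05. Sdha, the flavoprotein, with the highest level per length of the complex (166 CPM per kb in cKO and 165 in WT), had 484, 454 and 502 CPM in the cKO libraries, against 509.7, 456 and 472 CPM in the WT libraries. The groups overlapped over nearly their whole range, with a log2 fold change of 0.00 ± 0.08 (SE) whose sign depended on the scaling. Sdhb, the iron-sulfur subunit, had 161, 139 and 147 CPM in the cKO libraries, against 161, 152 and 145 CPM in the WT libraries, also overlapping. Its log2 fold change was -0.04 (adjusted p = 0.827). The membrane anchor Sdhc had 99.0, 98.5 and 106 CPM in the cKO libraries, against 109, 112 and 108 CPM in the WT libraries, with no overlap. Its log2 fold change of -0.12 had an adjusted p of 0.358. The other anchor, Sdhd, had 105, 98.4 and 105 CPM in the cKO libraries, against 110.4, 101 and 111 CPM in the WT libraries. These groups overlapped, with a log2 fold change of -0.06 (adjusted p = 0.666).

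Complex III had 9 members, all tested, and its median log2 fold change was -0.07. The subunits that carry heme c1 and the Rieske iron-sulfur cluster had values at or above 0. Cyc1, cytochrome c1, averaged 232 ± 14.9 CPM in cKO and 226 ± 16.8 CPM in WT, and Uqcrfs1, the Rieske protein, averaged 139 ± 7.26 CPM in cKO and 138 ± 12.6 CPM in WT (SD, n = 3 each). The small accessory subunits with the smallest p were lower in cKO without passing the test. Uqcr11, the smallest subunit, had 53.9, 52.1 and 49.8 CPM in the cKO libraries, against 64.9, 59.8 and 57.0 CPM in the WT libraries. Uqcrh, the hinge protein between cytochrome c1 and cytochrome c, had 120.2, 125 and 134 CPM in the cKO libraries, against 165, 136 and 148 CPM in the WT libraries. Uqcr10 had 95.1, 97.2 and 92.5 CPM in the cKO libraries, against 110.2, 104 and 105 CPM in the WT libraries. In none of these 3 genes did the cKO and WT libraries overlap, and the log2 fold changes were -0.22, -0.24 and -0.17 with adjusted p of 0.184, 0.205 and 0.215. Uqcrq, a ubiquinone-binding subunit with the highest level per length of the complex (282 CPM per kb in cKO and 295 in WT), had 121, 108 and 113 CPM in the cKO libraries, against 127, 119 and 112 CPM in the WT libraries. Its groups overlapped, with a log2 fold change of -0.06 (adjusted p = 0.686).

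Complex IV, cytochrome c oxidase, had 20 members of which 18 were tested, and the lowest median of the 5 complexes, -0.17. Its 11 tested accessory subunits of the common form had a median of -0.08, and the 6 tested tissue isoforms had -0.60. The catalytic core of complex IV is encoded by mitochondrial DNA and was not analysed here. Cox6a1, a subunit at the dimer interface of the enzyme, had 331, 308 and 304 CPM in the cKO libraries, against 399, 391 and 368 CPM in the WT libraries. All cKO libraries lay below all WT libraries, with a log2 fold change of -0.30 ± 0.07 (SE) and an adjusted p of 0.0941. Cox4i1, a regulatory subunit with the highest level per length of the complex (623 CPM per kb in cKO and 738 in WT), had 471, 449 and 473 CPM in the cKO libraries, against 589, 524 and 535 CPM in the WT libraries. Cox8a, the smallest nuclear subunit of the common form, had 334, 315 and 308 CPM in the cKO libraries, against 374, 361 and 356 CPM in the WT libraries. Neither gene had overlapping groups, and the log2 fold changes were -0.24 (adjusted p = 0.148) and -0.19 (adjusted p = 0.193). DESeq2 called 4 members lower and 0 higher, namely Ndufb7, Cox6a1 (adjusted p = 0.00605), Ndufaf3 (0.0338) and Cox4i1 (0.0395), where it called 2.48% of all genes lower and 3.55% higher. The authors' deposited table called 3 members (of 92 with an adjusted p) lower and 0 higher, which were Ndufb7, Cox6a1 (adjusted p = 0.0122) and Ndufaf3 (0.0459). Over all genes, the authors' deposited table called 1.65% lower and 2.41% higher.

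**Figure D2:**
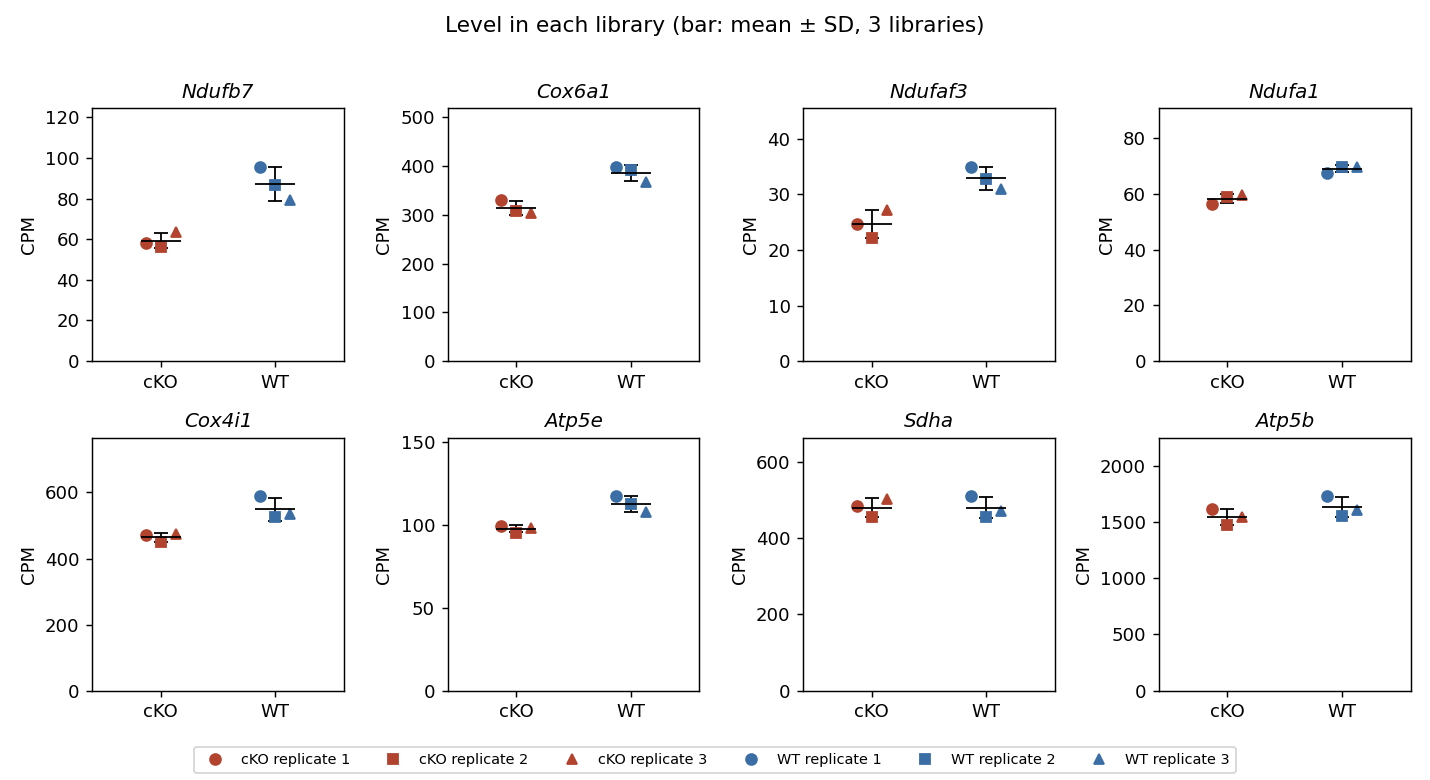
Level in CPM (vertical axes from 0, one panel per gene) of 8 genes in each of the 3 cKO and 3 WT libraries, with the mean and SD as bars and one marker shape per replicate number. The groups are apart for Ndufb7, Cox6a1, Ndufaf3, Ndufa1, Cox4i1 and Atp5e, and overlap for Sdha and Atp5b.

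Complex V had 16 members of which 15 were tested, with a median log2 fold change of -0.08 and 13 negative values. Atp5b, the catalytic beta subunit, had the highest level per length of all members, 806 CPM per kb in cKO and 851 in WT. It had 1615, 1476 and 1542 CPM in the cKO libraries, against 1729.9, 1554 and 1609.8 CPM in the WT libraries. The groups overlapped, with a log2 fold change of -0.08 ± 0.08 (SE, adjusted p = 0.621). Atp5a1, the alpha subunit beside it, had a log2 fold change of 0.03 (adjusted p = 0.859). Atp5e, the epsilon subunit of the central stalk, had 99.0, 95.00 and 98.2 CPM in the cKO libraries, against 117, 112 and 108 CPM in the WT libraries. The groups did not overlap, and the log2 fold change of -0.20 ± 0.07 (SE) had an adjusted p of 0.159. Atp5j2, subunit f of the membrane part, had 76.3, 73.0 and 75.6 CPM in the cKO libraries, against 86.8, 77.8 and 79.5 CPM in the WT libraries. These groups did not overlap either, with a log2 fold change of -0.12 (adjusted p = 0.392) that was -0.07 without WT replicate 1. Atp5g1, which makes subunit c of the proton-driven ring, had 18.4, 19.6 and 14.95 CPM in the cKO libraries, against 22.8, 21.5 and 19.2 CPM in the WT libraries. The groups overlapped slightly, with a log2 fold change of -0.27 ± 0.13 (SE, adjusted p = 0.298), which was -0.16 without cKO replicate 3.

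Several subunits exist as paralogous isoforms, and in both genotypes 1 form supplied most of the level per length. Cox4i1 made up 99.6% ± 0.124 of the Cox4i level in cKO and 99.5% ± 0.0472 in WT (SD, n = 3 each). Cox6a1 made up 96.4% ± 0.455 of Cox6a in cKO and 97.2% ± 0.968 in WT, with the muscle form Cox6a2 as the remainder. Cox8a made up 99.5% ± 0.290 of Cox8 in cKO and 99.3% ± 0.295 in WT, and Cox7b 99.2% ± 0.621 of Cox7b and Cox7b2 in cKO and 99.3% ± 0.361 in WT. The Cox7a group was more mixed. Cox7a2 held 74.9% ± 0.195 in cKO and 74.0% ± 0.883 in WT, the supercomplex factor Cox7a2l held 23.2% ± 0.194 in cKO and 23.6% ± 1.47 in WT, and the muscle form Cox7a1 held 1.91% ± 0.175 in cKO and 2.35% ± 0.590 in WT. Ndufa4, now counted as a subunit of complex IV, made up 99.3% ± 0.0816 of its pair in cKO and 99.0% ± 0.0940 in WT. Among the 3 genes for subunit c of complex V, Atp5g3 made up 93.9% ± 0.894 in cKO and 93.2% ± 0.755 in WT. These shares are uncertain, since Atp5g2 and Atp5g1 share 100% and 66.0% of their sequence windows with genes elsewhere, as described below.

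Cox6b2, Cox8b and Cox4i2, minor isoforms of complex IV, had the 3 most negative values of the tested members, with low counts and wide errors. Of the 6 tissue isoforms tested, 0 passed the edgeR test, and 3 were lower at an unadjusted p below 0.05, where 8.81% of all genes tested were. Cox6b2, known as the testis form, had 2.17, 5.03 and 4.13 CPM in the cKO libraries, against 4.90, 7.71 and 6.65 CPM in the WT libraries. The groups overlapped, with a log2 fold change of -0.76 ± 0.32 (SE, adjusted p = 0.239). It was -0.49 without cKO replicate 1 and -0.35 (adjusted p = 0.546) without WT replicate 2 and cKO replicate 1 together. Within each genotype its 3 libraries stood in the same order as the summed choroid plexus, striatal and oligodendrocyte markers, lowest in replicate 1 and highest in replicate 2, and the part of tissue content in this value was not tested. Cox4i2, a form known from lung, had 1.74, 1.15 and 2.36 CPM in the cKO libraries, against 3.24, 2.87 and 2.51 CPM in the WT libraries. Ndufa4l2, known to be induced by low oxygen, had 2.30, 2.61 and 2.86 CPM in the cKO libraries, against 3.90, 3.06 and 4.15 CPM in the WT libraries. Neither overlapped between groups, and the log2 fold changes were -0.69 (adjusted p = 0.245) and -0.51 (adjusted p = 0.224). The muscle forms Cox7a1 and Cox8b had -0.35 (adjusted p = 0.409) and -0.75 (adjusted p = 0.443), and Cox6a2 had 0.06 (adjusted p = 0.927). Of 4 muscle marker genes, which summed to 6.82 to 7.94 CPM in cKO and 8.40 to 12.2 CPM in WT, Ckm and Myh1 were at or near 0 in all libraries. Acta1 was called lower in cKO (log2 fold change -1.23, adjusted p = 0.0477), and Myh6 was not called (0.23, adjusted p = 0.559).

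The libraries differed in the level of the members as a group. The mean log2 level of the 89 tested members, set from each gene's own mean over 6 libraries, was -0.05, -0.10 and -0.03 in cKO replicates 1 to 3, against 0.13, -0.02 and 0.06 in WT replicates 1 to 3. The lowest library was cKO replicate 2, the highest was WT replicate 1, and the highest cKO mean stood next to the lowest WT mean. The medians over the same members overlapped, at -0.03, -0.10 and -0.03 in the cKO libraries, against 0.14, -0.04 and 0.04 in the WT libraries. Of the 89 members, cKO replicate 2 gave the lowest value of the 6 libraries for 39 and WT replicate 2 for 24, while WT replicate 1 gave the highest for 62. By complex, the means of complex IV did not overlap between groups, at -0.20, -0.12 and -0.04 in the cKO libraries, against 0.14, 0.07 and 0.16 in the WT libraries. Without its tissue isoforms the groups of complex IV lay closer, at -0.04, -0.10 and -0.04 in the cKO libraries, against 0.13, -0.02 and 0.07 in the WT libraries. For complexes I, II and III the libraries of the genotypes overlapped. For complex V, WT replicate 2 lay within the range of the cKO libraries. All members together took 1.21%, 1.15% and 1.23% of all counts in the cKO libraries, against 1.37%, 1.18% and 1.25% in the WT libraries, and these shares overlapped.

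**Figure D3:**
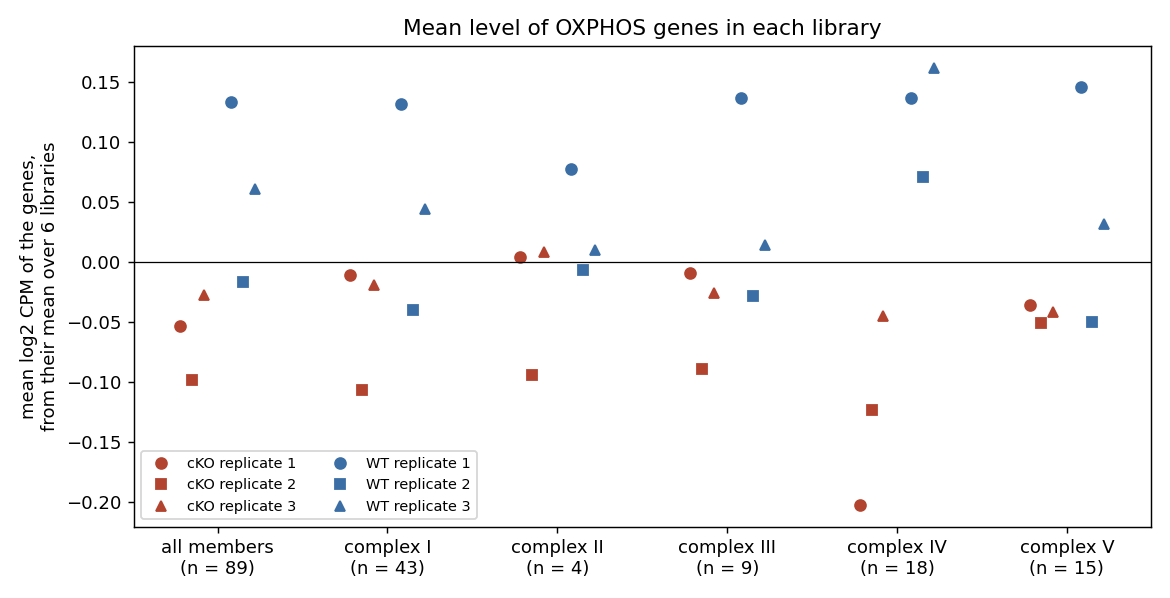
Mean log2 CPM of the tested genes in each library, as the difference from each gene's mean over 6 libraries (vertical axis), for all 89 genes and for each complex, with cKO left of WT. Over all genes cKO replicate 2 is at -0.10 and WT replicate 1 at 0.13, and the means of the groups are apart for complex IV.

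Members have short transcripts, and genes with short transcripts as a whole had a negative median in this comparison. The transcripts of tested members had a median length of 861 bases, against 2828.5 bases for the 14806 tested genes with a length. The median log2 fold change of members was -0.10 at 500 to 750 bases (30 genes), -0.08 at 750 to 1000 (13 genes), -0.08 at 1000 to 1500 (18 genes), -0.06 at 1500 to 2500 (14 genes) and 0.02 at 2500 to 5000 (4 genes). In the same classes, all genes tested had -0.11, -0.08, -0.07, -0.03 and 0.01, and those over 5000 bases had 0.09. From 500 to 5000 bases, in the same order, 86.7%, 84.6%, 83.3%, 71.4% and 25% of members were negative. Of all genes tested in these classes, 70.5%, 65.4%, 63.5%, 55.8% and 48.5% were negative. Members up to 500 bases had a median of -0.23 over 10 genes, against -0.07 over all 126 genes of that transcript length. All 10 were negative, against 67.5% of those 126. These 10 include Ndufa1, Uqcr11, Uqcr10, Atp5e and the isoforms Cox6b2, Cox7a1 and Cox8b. Across the 89 members, the log2 fold change went with log2 transcript length at Pearson's r = 0.37 (Spearman's rho = 0.39) and with GC content at r = -0.41 (rho = -0.44). Over all genes the rho was 0.19 with length and -0.23 with GC content. Genes share their libraries, so these values are descriptions across genes. The part of length or GC content in the values of members was not tested.

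**Figure D4:**
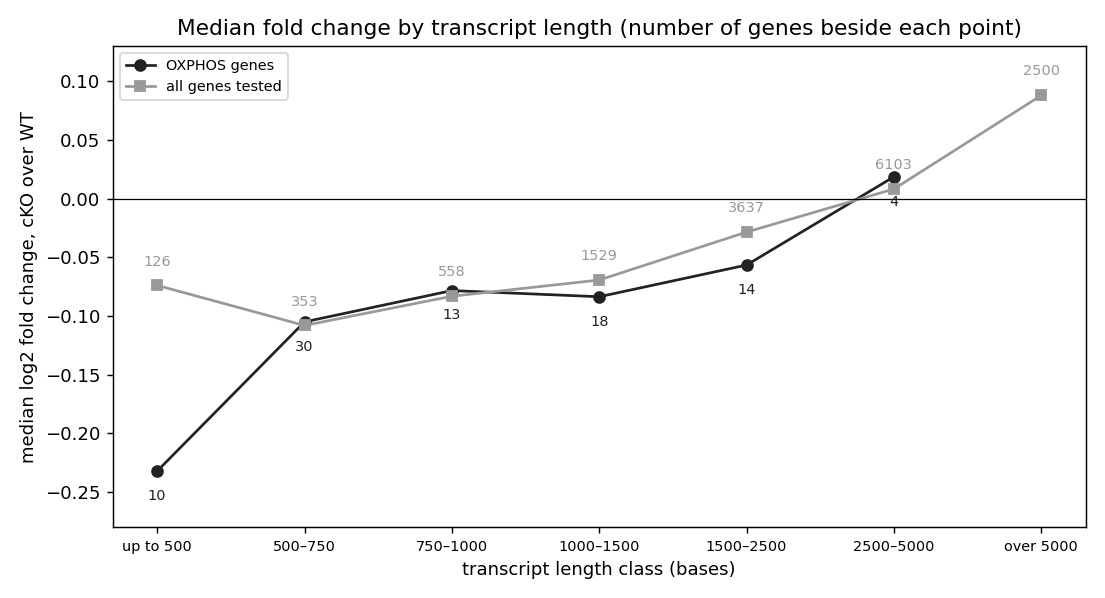
Median log2 fold change (cKO over WT, vertical axis) by class of transcript length in bases, for OXPHOS (oxidative phosphorylation) genes and for all tested genes, with the number of genes beside each point. Between 500 and 5000 bases the 2 lines lie close together, and up to 500 bases members are at -0.23 against -0.07.

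The level per length of a subunit gene went with how much of its transcript is found elsewhere in the genome. For each of the 75 core and accessory subunit genes, the share of 50-base windows of its transcript that also occur in a transcript of a gene elsewhere was counted. The 57 genes with up to 10% shared windows had a median of 145 CPM per kb over all libraries, the 8 genes with 10% to 30% had 113, and the 10 genes with over 30% had 17.6. Across the 75 genes the rank correlation was rho = -0.48, a description with no test. With the longest coding transcript in place of the shortest well-supported one, 7 genes had over 30% shared windows, with a median of 13.1 CPM per kb. The share of Atp5g1, for example, was 66.0% in the transcript used and 11.6% in the longest. The median log2 fold changes of these classes were -0.08, -0.09 and -0.07, from the least to the most shared.

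The counts of 4 members were too low for the test. A high share of windows did not always go with this, since Atp5l (68.5%) and Atp5g1 (66.0%) were tested. Atp5g2, one of the genes for subunit c, shared 100% of its windows with 2 processed pseudogenes, Gm10175 and Gm10231. It had 0, 0 and 0 counts in the cKO libraries, against 0, 0 and 1 in the WT libraries. Ndufs5, an accessory subunit of complex I, shared 41.2% of its windows with the pseudogene BC002163, and had 1, 0 and 1 counts in the cKO libraries, against 2, 1 and 2 in the WT libraries. BC002163 itself had 562, 463 and 816 counts in the cKO libraries, against 571, 467 and 682 counts in the WT libraries, with a log2 fold change of -0.05 (adjusted p = 0.836). Cox7c, with 53.0% of windows shared, had 11.1 ± 0.531 CPM in cKO and 12.7 ± 1.08 CPM in WT (SD, n = 3 each). Its pseudogene Gm12338 (29.1% of windows) had 23.3 ± 1.20 CPM in cKO and 24.0 ± 3.15 CPM in WT. Another copy, Gm10012 (36.7% of windows), had 8, 0 and 4 counts in the cKO libraries, against 2, 1 and 5 in the WT libraries. Reads of these genes and their copies could not be told apart from the counts, so the levels of members with shared windows are uncertain. The remaining untested members were the isoforms Cox8c, at 0 counts in all libraries, and Cox7b2, with 3 to 24 counts in cKO and 3 to 12 in WT, both with 0% of windows shared.

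**Figure D5:**
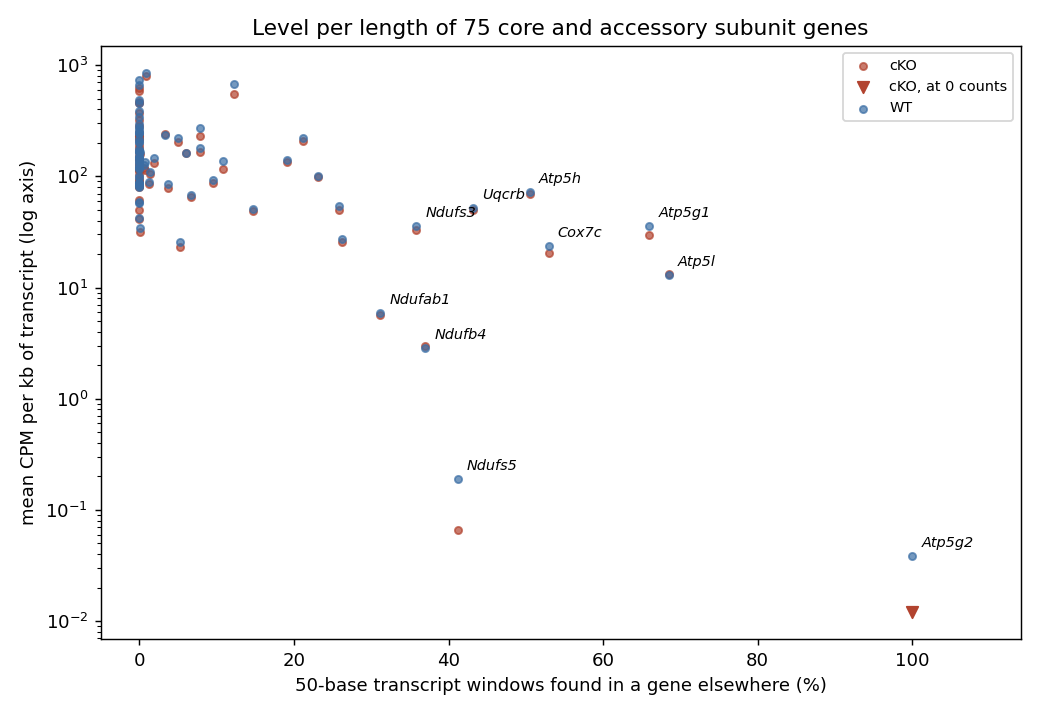
Mean CPM per kb of transcript (vertical log axis) against the percentage of 50-base transcript windows found in a gene elsewhere, for 75 subunit genes in cKO and in WT. The genes over 30% are named and lie at or below 72.7 CPM per kb, with Ndufs5 and Atp5g2 lowest, and the triangle marks Atp5g2 at 0 counts in cKO.

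Exons of another annotated gene cover over 10% of the transcript in 17 members, and reads in such a stretch could not be assigned to 1 gene without strand information. These include Ndufb2 (50.3%), Cox5a (41.7%), Atp5j (22.5%, with Gabpa) and Cox4i1 (18.0%, with Emc8), and do not include Ndufb7, Cox6a1 or Ndufaf3.

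Other mitochondrial pathways were described through 10 lists, and 0 of their genes were called in either direction by edgeR at an adjusted p below 0.05, where 1.51% of all genes tested were. Medians ran from -0.07 for 12 antioxidant genes of the matrix to 0.08 for 18 regulators of mitochondrial biogenesis. The 39 tested assembly factors outside the name rule had a median of -0.00 with 20 negative, and the 25 genes of the citric acid cycle and pyruvate dehydrogenase had -0.01 with 15 negative. At an unadjusted p below 0.05 the assembly factors had 2 lower and 2 higher, the citric acid cycle 1 and 1, glycolysis 1 and 0, protein import 1 and 0, fusion and fission 2 and 1, the antioxidant genes 1 and 2, and the regulators 1 and 3. The carriers and mitochondrial DNA maintenance had 0 lower and 1 higher each, and coenzyme Q synthesis had 0 and 0. Over all genes tested, 8.81% were lower and 11.1% higher by this rule. Of all listed genes, limma-voom called 0, and DESeq2 called Gpx1 lower (adjusted p = 0.0317) and Glrx2 higher (adjusted p = 0.0222).

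The genes with the smallest p of each list were as follows. The glutaredoxin Glrx2 averaged 63.1 ± 2.01 CPM in cKO and 50.8 ± 1.92 CPM in WT (SD, n = 3 each), a log2 fold change of 0.31 with an adjusted p of 0.0758. The peroxide-removing enzyme Gpx1 averaged 66.7 ± 3.82 CPM in cKO and 84.4 ± 6.67 CPM in WT, a log2 fold change of -0.34 with an adjusted p of 0.1002. Polg2, the accessory subunit of the mitochondrial DNA polymerase, had 0.93 (adjusted p = 0.137), and Top1mt, the mitochondrial topoisomerase, -0.30 (0.276). The assembly factors Cox18, of complex IV, and Ttc19, of complex III, had 0.35 (0.145) and 0.22 (0.158). Gabpa and Gabpb2, subunits of the factor that binds the GABPA motif above, had 0.36 (0.174) and 0.33 (0.173). Among carriers, the uncoupling protein Slc25a27 had 0.18 (0.207) and the ADP/ATP carrier Slc25a5 -0.14 (0.276). In the citric acid cycle list, the kinase Pdk2 had -0.28 (0.202) and the pyruvate dehydrogenase subunit Pdhb 0.20 (0.239), and in glycolysis, lactate dehydrogenase Ldhb had -0.29 (0.174) and Gpi1 -0.07 (0.620). The coenzyme Q genes Pdss1 and Adck3 had 0.49 (0.268) and -0.24 (0.288). The import genes Timm22 and Tomm20 had -0.21 (0.189) and 0.16 (0.271). Chchd3, of the cristae-shaping complex, and the fission gene Fis1 had -0.20 each (0.189 and 0.201).

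Members were also compared by promoter letters. The 16 tested members with NRF1 letters had a median log2 fold change of -0.06, against -0.10 for the 57 without. With and without GABPA letters the medians were -0.08 and -0.09, over 16 and 57 members. With and without YY1 letters they were -0.08 and -0.09, over 9 and 64 members.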

How the data were processed

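Per the labels' protocols, the RNA behind the 6 libraries was isolated with a Qiagen kit, and TruSeq reagents from Illumina were used for library preparation. The authors deposited raw counts per gene symbol, normalised counts (a signal made by dividing counts by 1 size factor per library) and their own log2 fold changes, p-values and adjusted p-values, per the file headers. Tools listed, in no stated order, by the submitters' processing notes are DESeq2 1.6.3, HTSeq 0.6.1p1, TopHat2 2.0.10 and cutadapt, with mm10 as the build. The annotation version and the use of strand are not given in the sources used here. All 6 count columns carry a genotype and a repeat number that match 1 sample, and 0 columns of per-sample values had no match. No pair of libraries agreed within sampling noise (chi-square per degree of freedom of at least 10.7).

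The test on the deposited counts was that of edgeR 4.0.16, run in R 4.3.3 (quasi-likelihood test, expression filter with a minimum count of 10, TMM normalisation, Benjamini-Hochberg adjustment over all genes tested, threshold 0.05). P-values set the difference between genotypes against the spread between these 3 libraries per genotype, which the fit moderates across all genes. CPM are counts scaled by TMM library size, and an SE comes from the fold change and its F statistic. The procedure was tested on simulated data, where 38 of its 471 calls (8.07%) were false at the threshold of 0.05. Simulated differences by a factor of 1.5 were mostly missed, with 34.5% found. The share found rose to 89.9% for a factor of 2 and to 98.5% for a factor of 4. A member that was not called may therefore still differ by a small factor. Alternatives were DESeq2 1.42.0, limma-voom (limma 3.58.1), other scalings and filters, a threshold of 0.1, a replicate block and libraries left out.

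Lengths, exons and shared windows came from GENCODE M21 and promoters from RefSeq, both on GRCm38. A gene's transcript is its shortest best-supported coding one. Windows of 50 bases were compared on both strands with transcripts of genes that do not overlap the member. Values in every library are given for members called, the 3 smallest p and the highest level per length in each complex, and the largest change in each direction. Of each pathway list the 2 smallest p are named. Members and lists were chosen with earlier results of these data known. The choice of transcript, the restriction of shared windows to core and accessory subunits and to genes elsewhere, the role given to each member, the CTCF centre letters and the length of promoter shown were settled after values had been seen, as was the naming of Atp5a1, Cyc1, Uqcrfs1 and the neighbours of Ndufb7.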

Additional observations from a re-analysis of the deposited data

How the results depend on the processing

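The count of members called moved from 1 to 4 with DESeq2 and to 3 at a threshold of 0.1, and to 0 with the replicate block, with any 1 library left out (0 to 0) and without WT replicate 2 and cKO replicate 1 together. It stayed at 1 with upper-quartile scaling, DESeq2 size factors, limma-voom and both other filters. The count over all genes, 225, was 881 with DESeq2, 691 at the threshold of 0.1, 111 without that pair of libraries and 12 to 147 with 1 library left out. The median log2 fold change of members was -0.16 without that pair, -0.13 to -0.03 with 1 library left out, and negative under every alternative run. The log2 fold change of Sdha changed sign, at -0.0050 with DESeq2, -0.0051 with DESeq2 size factors, -0.016 with upper-quartile scaling and -0.039 without that pair. With 1 library left out it ran from -0.033 (without cKO replicate 3) to 0.048 (without WT replicate 1), and it was also negative without WT replicate 2, WT replicate 3 or cKO replicate 1. That of Sdhb ran from -0.096 (without cKO replicate 1) to 0.0076 (without cKO replicate 2), and was also positive without WT replicate 1. With the replicate block, Ndufb7 had -0.55 (edgeR adjusted p = 0.0612) and 185 genes were called, 107 higher and 78 lower in cKO. Whether the numbers pair the libraries could not be settled with 3 libraries per genotype. Deviations of same-numbered libraries correlated at 0.22, 0.43 and 0.08, and those of differently numbered libraries at -0.41 to 0.19. The deviations of cKO replicate 3 correlated best with those of WT replicate 1 (0.19). The cause of these shifts was not tested. At this depth members under about 5 CPM carry SEs of 0.17 or more. The 53 tested accessory subunits had a median log2 fold change of -0.08 with a median SE of 0.08. A difference of that size was therefore about as large as the SE of a single gene among them, which is not the error of their median. The mean log2 level of these accessory subunits, set from each gene's own mean over 6 libraries, was -0.05 ± 0.04 in cKO. In WT it was 0.05 ± 0.09 (SD, n = 3 libraries each).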
